A study of Mus musculus with 6 samples.

Results

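Collagens, laminins and integrins are the structural chains of the extracellular matrix and the receptors by which cells hold on to it. The genes described here are the protein-coding genes of the deposited count table whose symbols have the form of a numbered collagen chain, a laminin α, β or γ chain or a numbered integrin chain, and whose counts summed over all 6 libraries reached at least 60. Of 25241 genes in the table, 76 matched by symbol and 53 of these reached the minimum: 27 collagens, 9 laminins and 17 integrins. The genes were thus chosen by symbol and by summed count, the only measured value used, which does not set one group against the other. Just inside the minimum were Col4a4 with 62 counts, Col19a1 with 83 and Itgb2 with 87, and just outside it were Col6a2 with 46 counts, Lamb3 with 42 and Col6a3 with 39. Integrins named by a letter, such as the αv chain Itgav, are outside the rule and are given where a result turns on them.

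RNA was sequenced from neural stem cells of the hippocampal subgranular zone, a layer under the granule cells of the dentate gyrus in which new neurons form in adult mice. The cells were a primary, wild-type culture at passage 3. One group of 3 libraries came from cultures given 0.8 μM cadmium chloride, and the group it was set against, also 3 libraries, came from untreated cultures. Exposure lasted 72 h, and no separate harvest time is given for the untreated cultures. Strain, age and sex are not given in the labels, which call the replicates biological without saying whether they came from separate animals or platings, so the p-values cover only how these samples vary, which may be technical in part.

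Laminins are trimers of an α, a β and a γ chain that polymerise into the sheet of a basement membrane, which type IV collagen braces. Fibrillar collagens make fibres, fibril-associated collagens decorate them, and integrins, each a pair of an α and a β chain in the plasma membrane, bind these ligands outside the cell and actin adaptors inside it. In the adult mouse brain, laminin and its β1 integrin receptors are best known for holding neural stem cells in the subventricular niche.

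Library totals lay between 37710042 and 41523231 counts. A level is given either as CPM (counts relative to the TMM-adjusted library total) or as FPKM, which also divides by gene length. The known cadmium-induced genes were higher in the cadmium libraries: the metallothionein Mt1 averaged 1278 ± 18.3 CPM in cadmium and 562 ± 59.3 CPM in control libraries, Mt2 736 ± 31.7 CPM in cadmium and 226 ± 33.6 CPM in control libraries, and the heme oxygenase Hmox1 348 ± 7.42 CPM in cadmium and 93.5 ± 5.80 CPM in control libraries (SD, n = 3 each). The main axis of variation (principal component 1, 77.6% of the variance) parted the groups, with cadmium libraries at 16.8, 22.3 and 18.3 and control libraries at −15.5, −15.1 and −26.7, so control replicate 3 stood apart from its group. The cultures carried the stem cell markers Nes (623 ± 33.6 CPM in cadmium and 363 ± 26.2 CPM in control libraries) and Sox2 (499 ± 20.0 CPM in cadmium and 602 ± 27.0 CPM in control libraries). They also carried markers of astrocytes and of the oligodendrocyte lineage.

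Most laminin chains rose after cadmium. Collagens included 5 that rose and 9 that fell, and integrins split, with α8, α9, α4 and α3 higher and α2, α7 and β8 lower. A gene is said to have risen or fallen where edgeR's quasi-likelihood test gave an adjusted p (Benjamini-Hochberg over all 14369 genes tested) below 0.05. All 53 genes were tested, and 33 changed (62.3%), 18 of them rising and 15 falling. The background is high: 45.5% of all genes tested changed, 23.1% rising and 22.4% falling. A change of at least 2-fold was seen in 6 that rose and 4 that fell, against backgrounds of 1.98% of all genes rising and 2.44% falling that far. The median log2 fold change of the 53 was −0.02, beside −0.01 over all genes tested, and the median of its absolute value was 0.44, beside 0.20. The cadmium libraries lay wholly above the control libraries for 18 of the 53 and wholly below for 19, against 56.3% of all genes in either position. A filter on low counts kept 9 of the 53 through the libraries of one group only, of which 3 rose and 2 fell (Col19a1, Lama3, Col1a2 and Col2a1 among them), and of the other 44, 15 rose and 13 fell. Without control replicate 3, 15 of the 53 rose and 12 fell, where 21.8% of all genes rose and 20.4% fell.

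**Figure D1:**
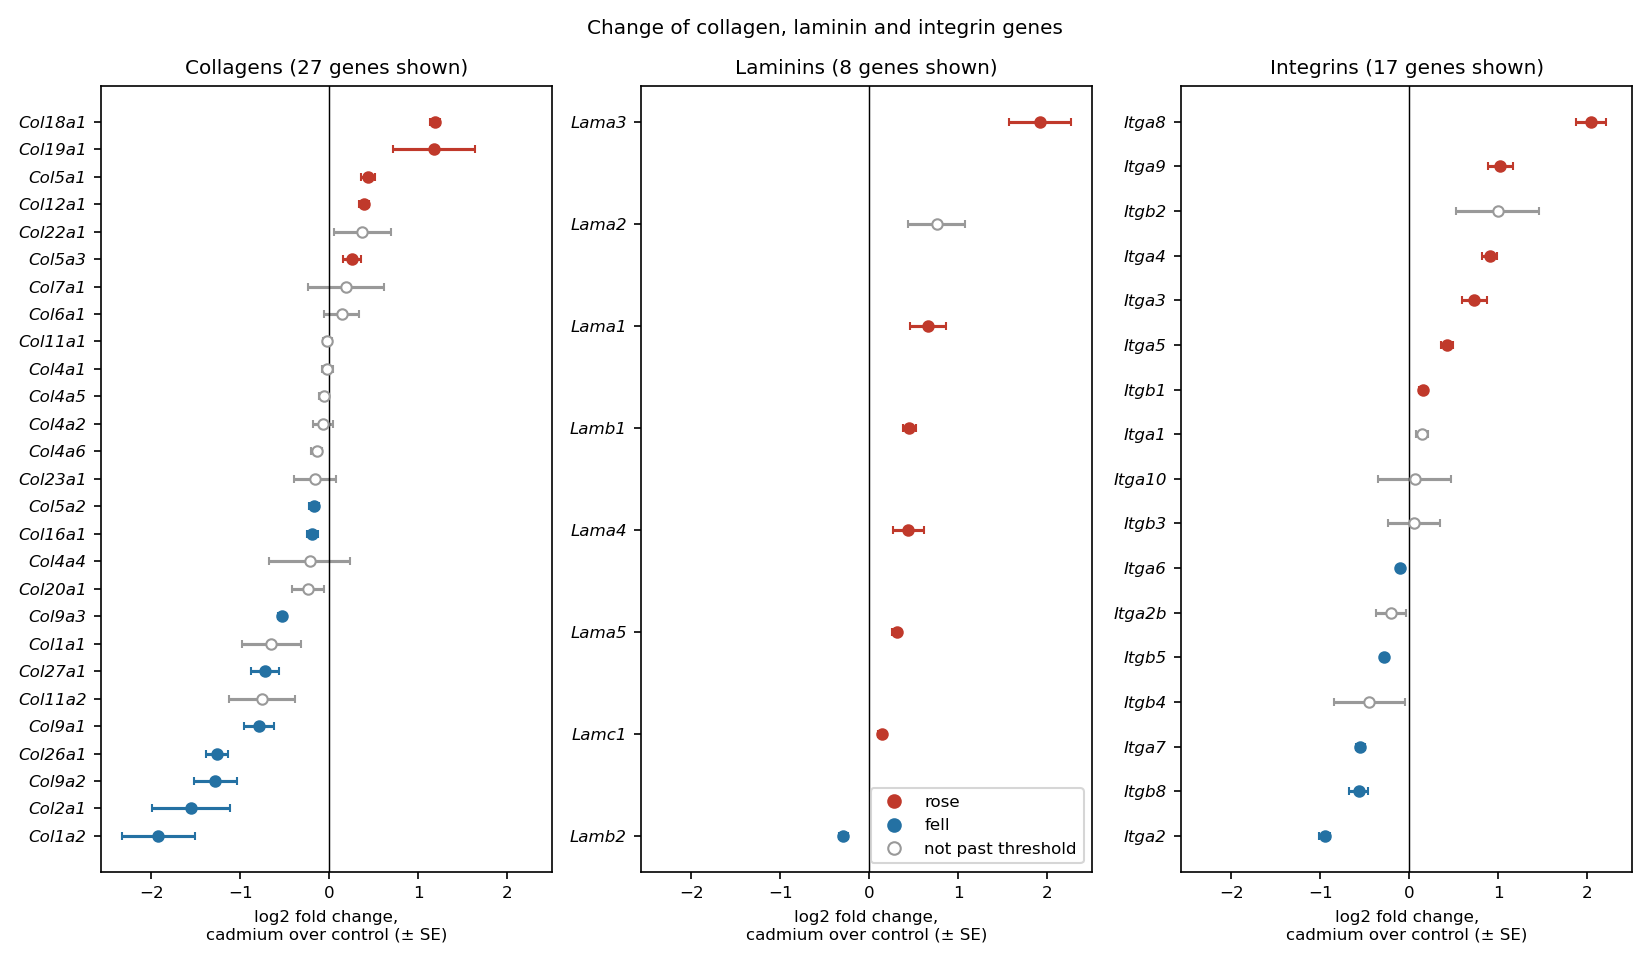
Log2 fold change (cadmium over control) with its standard error for 52 of the 53 genes, ordered by size within each family; filled points passed the adjusted p threshold of 0.05 and open points did not. The laminins drawn lie mostly right of 0, from −0.29 for Lamb2 to 1.92 for Lama3, the collagens run from −1.92 to 1.19, and the integrins from −0.95 to 2.04.

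Per gene length, the integrins summed to more transcript than the matrix chains, with a large part of that sum from 1 chain. Summed FPKM of the 17 integrins was 320 to 324 in cadmium and 324 to 340 in control libraries, that of the 27 collagens 110 to 113 in cadmium and 104 to 107 in control libraries, and that of the 9 laminins 62.6 to 64.3 in cadmium and 56.1 to 60.5 in control libraries. The β1 integrin chain Itgb1 led all families, with 181 ± 3.09 FPKM in cadmium and 164 ± 7.79 FPKM in control libraries. The excess of the integrin sum thus rests largely on Itgb1. Among laminins the γ1 chain Lamc1 led, with 33.7 ± 0.908 FPKM in cadmium and 30.7 ± 1.45 FPKM in control libraries. Col18a1 held 26.7 ± 0.677% of summed collagen FPKM in cadmium, more than any other collagen, and 12.6 ± 1.07% in control libraries. Col9a3 held 10.8 ± 0.287% in cadmium and 16.6 ± 0.734% in control libraries, and Col4a5 14.4 ± 0.818% in cadmium and 16.1 ± 0.684% in control libraries, where these chains lay within their SD of each other.

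**Figure D2:**
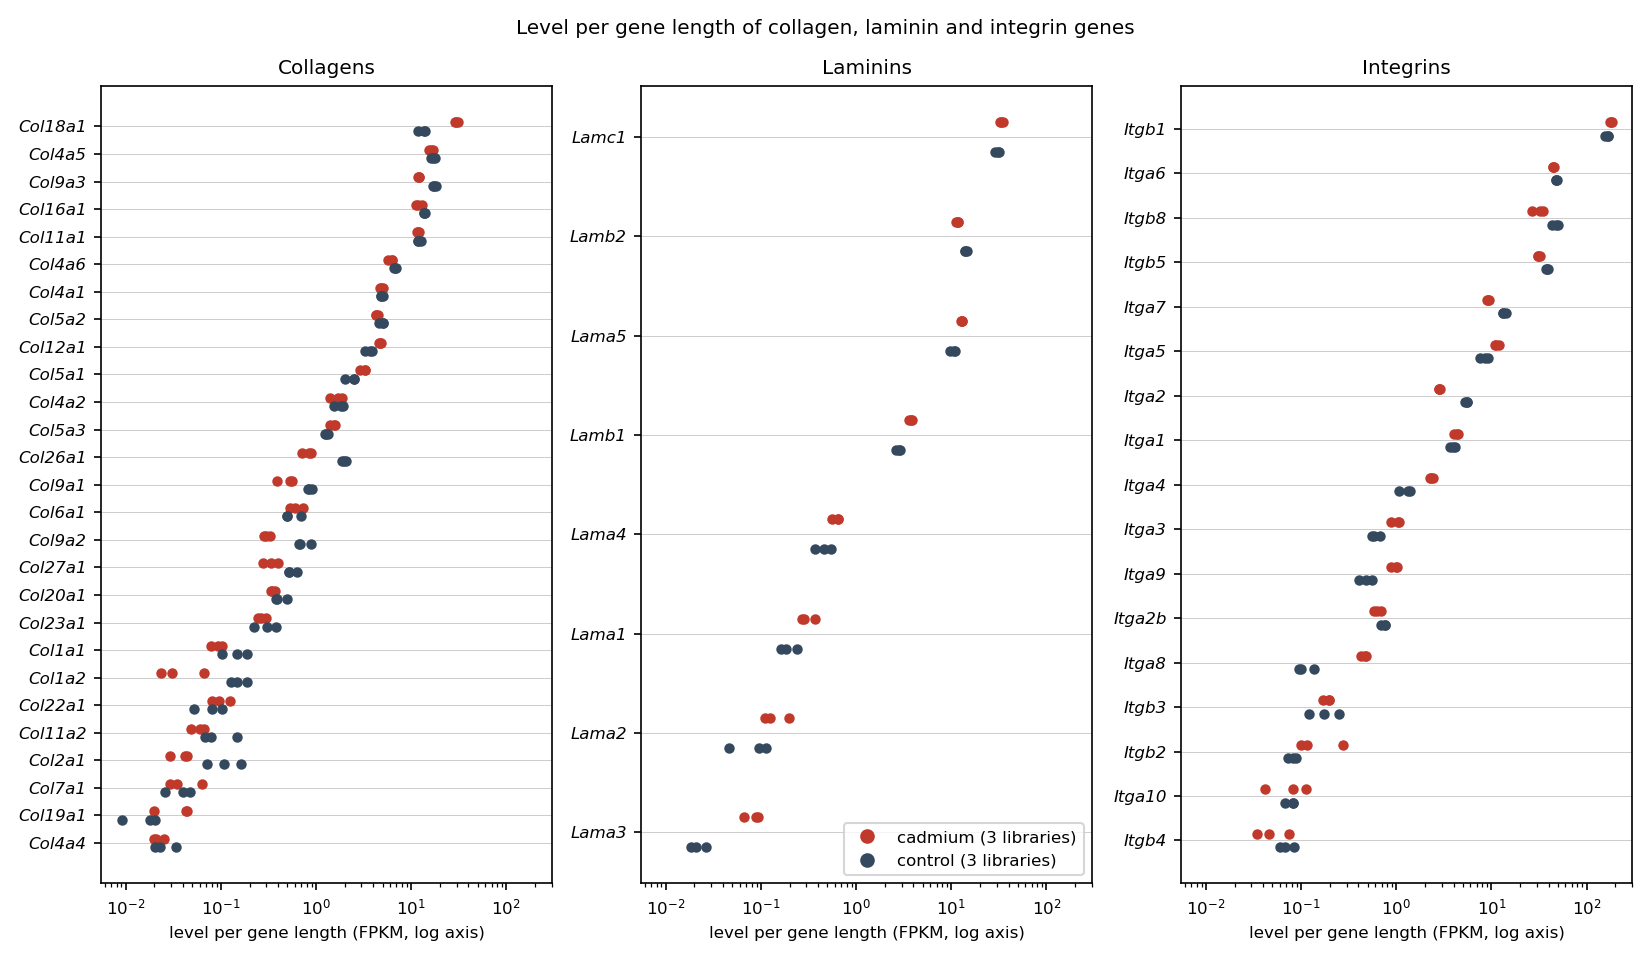
Level per gene length (FPKM, log axis) of 52 of the 53 genes in each of the 3 cadmium and 3 control libraries, ordered by mean level within each family. Itgb1 is the highest point of all, at 181 FPKM on average in cadmium and 164 in control libraries, and the laminins fall into an abundant group (Lamc1, Lamb2, Lama5 and Lamb1) and a sparse one.

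Of the 9 laminins, 7 rose, 1 fell and 1 did not pass, with a median log2 fold change of 0.45. The 88.9% of laminins that changed stands beside 45.5% of all genes tested (23.1% rising, 22.4% falling). The chains most abundant per length were γ1, β2, α5 and β1. Lama5 made up 91.8% of α chain FPKM in cadmium and 93.2% in control libraries. The β chains moved apart. Lamb1, which encodes β1 (Entrez 16777, chromosome 12), was at 21.1, 22.9 and 22.3 CPM in cadmium and at 16.3, 16.7 and 15.4 CPM in control libraries. Every cadmium library was above every control library, and the log2 fold change was 0.45 ± 0.07 (SE; edgeR adjusted p = 0.00013). Lamb2, which encodes β2 (Entrez 16779, chromosome 9), was at 62.4, 65.9 and 66.5 CPM in cadmium and at 82.1, 77.0 and 79.6 CPM in control libraries. It was the laminin that fell, with every cadmium library below every control library (−0.29 ± 0.05, adjusted p = 0.00019). As a ratio of FPKM, Lamb1 over Lamb2 was 0.325, 0.333 and 0.322 in cadmium and 0.190, 0.208 and 0.185 in control libraries, so that β1 made up 24.6 ± 0.306% of β chain FPKM in cadmium and 16.3 ± 0.835% in control libraries (SD, n = 3 each).

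The abundant α and γ chains changed little in size. Lama5 (Entrez 16776) was at 148, 145 and 149 CPM in cadmium and at 121, 123 and 111 CPM in control libraries. The groups did not overlap, and Lama5 rose by 0.31 ± 0.05 on the log2 scale (adjusted p = 6.7e-05). Lamc1 (Entrez 226519) was at 257, 265 and 251 CPM in cadmium and at 236, 240 and 223 CPM in control libraries. Its lowest cadmium library was above its highest control library, and it rose by 0.14 ± 0.04 (adjusted p = 0.01).

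Lama3, the α3 chain of epithelial laminin (Entrez 16774), was near the floor of detection, with 32, 40 and 45 counts in cadmium and 10, 9 and 13 counts in control libraries. It was higher in every cadmium library, with a log2 fold change of 1.92 ± 0.35 (adjusted p = 0.00041), yet its highest library was at 1.11 CPM. The β3 chain Lamb3, under the count minimum, had 8, 8 and 10 counts in cadmium and 5, 8 and 3 counts in control libraries. Lama1, an early embryonic α chain, was at 2.85, 3.73 and 2.71 CPM in cadmium and at 1.80, 2.39 and 1.65 CPM in control libraries, and Lama4, an α chain of vessel walls, at 3.39, 3.94 and 3.87 CPM in cadmium and 3.24, 2.22 and 2.77 CPM in control libraries. Neither overlapped between groups, though the gap for Lama4 was small, and both passed (0.66 ± 0.20, adjusted p = 0.013 for Lama1; 0.44 ± 0.17, adjusted p = 0.041 for Lama4). Lama2, the α2 chain of muscle and Schwann cell basement membranes, overlapped between groups and did not pass (0.76 ± 0.32, adjusted p = 0.067). Without cadmium replicate 2, 4 laminins rose in place of 7, since Lama1 (adjusted p = 0.075), Lama4 (0.11) and Lamc1 (0.056) were no longer past the threshold. The share of all genes that rose was then 19.1%. The Lama4 call was also lost without cadmium replicate 3 (0.11), without control replicate 2 (0.16) or 3 (0.057), and in DESeq2 (0.056).

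Among the 27 collagens, 5 rose, 9 fell and 13 did not pass, with a median log2 fold change of −0.16. The 51.9% that changed is near the 45.5% of all genes tested, so the count is no result about collagens as a family. By structure, 2 of 9 fibrillar chains rose and 4 fell, 2 of 8 fibril-associated chains rose and 4 fell, and none of the 5 type IV chains passed in either direction at a threshold that 45.5% of all genes tested passed.

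The rise among collagens was led by Col18a1 (Entrez 12822, chromosome 10), the basement membrane collagen whose C-terminal fragment is endostatin. Its level was 220, 239 and 230 CPM in cadmium and 104, 107 and 91.1 CPM in control libraries. All cadmium libraries were above 2 times the mean of the control libraries, and the log2 fold change was 1.19 ± 0.06 (2.28-fold, adjusted p = 1.2e-08). Per length it stood at 29.9 ± 1.18 FPKM in cadmium and 13.2 ± 1.20 FPKM in control libraries. RefSeq annotates more than a single transcription start for this gene, and counts per gene do not tell which was used. The 250 bases before each of 2 annotated starts are shown because Col18a1 was the collagen with the smallest p. They come from RefSeq on build GRCm38.p6 (the counts were made on GRCm39), read on the gene's strand, the minus strand, at chr10:77166531-77166780 and chr10:77113706-77113955. Neither window holds an antioxidant element, an AP-1 element, a metal response core or a SOX motif, whose letters are given with the integrins, so no base is in capitals.
Col18a1, start at the higher coordinate: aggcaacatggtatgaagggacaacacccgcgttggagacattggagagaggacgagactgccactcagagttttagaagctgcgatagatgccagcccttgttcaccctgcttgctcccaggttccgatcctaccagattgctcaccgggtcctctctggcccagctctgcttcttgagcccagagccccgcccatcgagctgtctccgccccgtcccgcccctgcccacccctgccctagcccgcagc
Col18a1, start at the lower coordinate: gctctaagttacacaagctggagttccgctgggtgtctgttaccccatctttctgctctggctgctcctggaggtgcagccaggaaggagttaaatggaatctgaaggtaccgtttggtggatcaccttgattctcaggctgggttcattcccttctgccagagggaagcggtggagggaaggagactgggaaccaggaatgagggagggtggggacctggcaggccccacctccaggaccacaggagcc

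The other collagens that rose did so by less, apart from Col19a1. Col12a1, a fibril-associated chain, was at 67.1, 68.0 and 65.9 CPM in cadmium and at 54.2, 51.8 and 46.9 CPM in control libraries. It rose by 0.39 ± 0.06 (adjusted p = 5.4e-05) with no overlap between groups. Type V collagen, which sets the width of collagen fibres, did not move as a unit. Col5a1 (0.44 ± 0.08, adjusted p = 0.00073) and Col5a3 (0.26 ± 0.10, adjusted p = 0.034) rose, and Col5a2 fell (−0.17 ± 0.06, adjusted p = 0.039). Leaving out cadmium replicate 1 (adjusted p = 0.11) or 3 (0.095) or control replicate 2 (0.087) or 3 (0.063) ended the Col5a3 call. The Col5a2 call was lost on leaving out any library but control replicate 2, with adjusted p of 0.072, 0.097 and 0.12 without cadmium replicates 1, 2 and 3 and 0.1 and 0.09 without control replicates 1 and 3. Col19a1, at 24, 10 and 23 counts in cadmium and 11, 5 and 10 counts in control libraries, overlapped between groups and sat at the threshold (1.18 ± 0.46, adjusted p = 0.0498). It kept its call on leaving out cadmium replicate 2 and lost it on leaving out any other library, with adjusted p between 0.056 and 0.17. In DESeq2, which found 20.3% of all genes to rise, 3 collagens rose, with Col19a1 (0.11) and Col5a3 (0.056) past the threshold no longer.

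The chains of type IX collagen, a fibril-associated trimer of the Col9a1, Col9a2 and Col9a3 products best known from cartilage, all fell. Col9a3 (Entrez 12841), much the most abundant, was at 37.7, 36.9 and 37.5 CPM in cadmium and at 52.6, 52.2 and 56.4 CPM in control libraries. Every cadmium library was below every control library (−0.53 ± 0.05, adjusted p = 2.9e-06). Col9a1 (Entrez 12839) was at 2.36, 1.65 and 2.29 CPM in cadmium and 3.58, 3.49 and 3.84 CPM in control libraries, and Col9a2 (Entrez 12840) at 0.787, 0.906 and 0.814 CPM in cadmium and 1.85, 1.79 and 2.43 CPM in control libraries. Neither overlapped between groups, with log2 fold changes of −0.79 ± 0.17 for Col9a1 (adjusted p = 0.0017) and −1.28 ± 0.24 for Col9a2 (adjusted p = 0.0005). Levels per length were far from equal: the FPKM of Col9a3 was 39.9 ± 3.29 times that of Col9a2 in cadmium and 23.9 ± 2.85 times in control libraries. Exons of Col9a3 overlap those of Tcfl5 on the opposite strand in the GENCODE vM21 annotation, and Tcfl5 rose, to 4.14 ± 0.326 CPM in cadmium against 1.59 ± 0.335 CPM in control libraries. The sources used here give no strand setting for the counting, so reads of that overlap cannot be assigned, and its part in the Col9a3 count was not tested. The window before Col9a2 is shown because it was the only one among genes that fell with an antioxidant element, in capitals, written TGACNNNGC. It lies at chr4:121039316-121039565 on the plus strand (RefSeq, GRCm38.p6), with the first base of the element 19 bases before the start.
Col9a2: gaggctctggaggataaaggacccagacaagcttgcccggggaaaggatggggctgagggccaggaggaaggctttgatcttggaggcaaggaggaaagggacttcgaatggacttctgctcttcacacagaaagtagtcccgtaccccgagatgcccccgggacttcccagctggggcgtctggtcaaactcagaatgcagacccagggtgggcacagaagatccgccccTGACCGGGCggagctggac

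Other collagens that fell were a mix of structures and mostly of low level. Col26a1 (Entrez 140709), a short collagen with an EMI domain, was at 3.39, 3.57 and 2.91 CPM in cadmium and at 7.80, 7.48 and 8.33 CPM in control libraries. The groups lay far apart, with a log2 fold change of −1.26 ± 0.12 (adjusted p = 2.2e-06). Col27a1, a fibrillar chain of developing cartilage, was at 2.36, 2.88 and 3.38 CPM in cadmium and at 4.34, 4.45 and 5.39 CPM in control libraries, without overlap (−0.72 ± 0.16, adjusted p = 0.0021). Col16a1, an abundant fibril-associated chain, was at 71.5, 83.8 and 74.7 CPM in cadmium and at 86.2, 88.8 and 87.1 CPM in control libraries. Its fall was small (−0.19 ± 0.06, adjusted p = 0.013) and was lost without cadmium replicate 1 (0.083) or 3 (0.067). The classical fibre collagens were close to the detection floor. Col1a2 (Entrez 12843) had 5, 6 and 14 counts in cadmium and 40, 28 and 32 counts in control libraries, and fell (−1.92 ± 0.41, adjusted p = 0.0016). Its partner in type I collagen, Col1a1, had 19, 21 and 25 counts in cadmium and 25, 36 and 46 counts in control libraries, which overlap at 25, and did not pass (−0.65 ± 0.33, adjusted p = 0.12). Col2a1, the cartilage fibre collagen (Entrez 12824), had 9, 8 and 6 counts in cadmium and 22, 15 and 34 counts in control libraries. It fell (−1.55 ± 0.44, adjusted p = 0.01), a call lost without control replicate 3 (0.06). Beside Col1a2, the mural cell marker Pdgfrb fell too, to 0.235 ± 0.0315 CPM in cadmium against 1.06 ± 0.212 CPM in control libraries. In bulk RNA, fewer cells of a type and less RNA per cell cannot be told apart, and the part of such cells in the Col1a2 result was not tested.

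Type IV collagen, the network of every basement membrane, did not pass the threshold in any chain. Col4a1 was at 30.8, 33.2 and 31.9 CPM in cadmium and at 31.8, 31.7 and 33.5 CPM in control libraries. Col4a2 was at 9.0, 12.1 and 11 CPM in cadmium and at 11.7, 12.2 and 9.94 CPM in control libraries. Both overlapped between groups, with log2 fold changes of −0.02 ± 0.06 (adjusted p = 0.84) and −0.07 ± 0.11 (adjusted p = 0.64). Col4a5 was the most abundant of the type, at 107, 100 and 111 CPM in cadmium and at 116, 104 and 111 CPM in control libraries (−0.06 ± 0.05, adjusted p = 0.36). Col4a6 was at 38.7, 42.3 and 42.3 CPM in cadmium and at 44.0, 44.9 and 47.0 CPM in control libraries. All its cadmium libraries were lower, but it stayed just short of the threshold (−0.14 ± 0.06, adjusted p = 0.0532). These genes sit in head-to-head pairs with no protein-coding gene between them, Col4a1 with Col4a2 on chromosome 8 and Col4a5 with Col4a6 on the X chromosome. The ratio of FPKM within a pair was 2.94 ± 0.348 in cadmium and 2.83 ± 0.404 in control libraries for Col4a1 over Col4a2, and 2.67 ± 0.20 in cadmium and 2.52 ± 0.182 in control libraries for Col4a5 over Col4a6, so the groups differed by less than their SD. In the third pair, on chromosome 1, Col4a4 (62 counts in all) did not pass and Col4a3, with 11 counts in all, was under the minimum. The other collagens that did not pass were Col11a1, Col11a2, Col6a1, Col7a1, Col20a1, Col22a1 and Col23a1. Of these Col11a1, which pairs with type V collagen in fibres, was abundant and close to level (−0.02 ± 0.05, adjusted p = 0.75), and the rest ran from −0.75 for Col11a2 to 0.37 for Col22a1.

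Of the 17 integrins, 6 rose, 5 fell and 6 did not pass, with a median log2 fold change of 0.06. The 64.7% of integrins that changed stands beside 45.5% of all genes tested (23.1% rising, 22.4% falling). The shared partner Itgb1 (Entrez 16412, chromosome 8) was at 764, 770 and 746 CPM in cadmium and at 696, 704 and 655 CPM in control libraries. The groups did not overlap, and it rose by 0.15 ± 0.04 (adjusted p = 0.0057). Its share of β chain FPKM was 74.1 ± 1.29% in cadmium and 65.7 ± 1.88% in control libraries. The other abundant β chains, β8 and β5, pair with αv and bind the RGD tripeptide, β8 being known for activating latent TGF-β. Itgb8 (Entrez 320910) was at 288, 234 and 307 CPM in cadmium and at 439, 373 and 420 CPM in control libraries. It was lower in every cadmium library (−0.57 ± 0.11, adjusted p = 0.0055), though the call was lost without control replicate 3 (−0.56, adjusted p = 0.082). Itgb5 (Entrez 16419) was at 104, 110 and 104 CPM in cadmium and at 128, 125 and 134 CPM in control libraries, and fell without overlap (−0.28 ± 0.04, adjusted p = 0.00012). Their α partner Itgav, outside the rule, rose, averaging 241 ± 7.36 CPM in cadmium and 189 ± 6.26 CPM in control libraries (0.35 ± 0.04, adjusted p = 1.2e-05). It was the only one of 2 letter-named integrins tested that changed.

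The largest integrin change was in the α8 chain, Itga8 (Entrez 241226, chromosome 2), which pairs with β1 and binds nephronectin and other RGD ligands. It was at 5.95, 5.46 and 6.14 CPM in cadmium and at 1.76, 1.27 and 1.24 CPM in control libraries. The lowest cadmium library was over 3 times the highest control library, and the log2 fold change was 2.04 ± 0.17 (4.12-fold, adjusted p = 5.7e-07). An antisense gene that overlaps its exons, E030013I19Rik, had 1 count in all libraries together. Even so, Itga8 was a minor chain per length, at 0.407 ± 0.0237% of α chain FPKM (Itgav included) in cadmium and 0.101 ± 0.0197% in control libraries. Itga5, the fibronectin receptor chain (Entrez 16402), was at 49.6, 53.6 and 48.4 CPM in cadmium and at 38.1, 41.3 and 34.2 CPM in control libraries. It rose without overlap (0.42 ± 0.07, adjusted p = 0.00018), and its share of α chain FPKM was 10.1 ± 0.582% in cadmium and 7.72 ± 0.670% in control libraries.

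The closely related α4 and α9 chains, which pair with β1 and bind VCAM-1, osteopontin or tenascin, both rose. Itga4 (Entrez 16401) was at 32.0, 30.6 and 30.2 CPM in cadmium and at 17.5, 18.1 and 14.3 CPM in control libraries. Itga9 (Entrez 104099) was at 6.17, 7.30 and 7.05 CPM in cadmium and at 3.90, 2.82 and 3.43 CPM in control libraries. Neither overlapped between groups, with log2 fold changes of 0.90 ± 0.08 (adjusted p = 1.4e-06) for Itga4 and 1.02 ± 0.14 (adjusted p = 3.9e-05) for Itga9.

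The laminin-binding α chains moved in opposite directions. Itga3 (Entrez 16400), the rarest of them, was at 4.72, 5.67 and 5.57 CPM in cadmium and at 2.95, 3.06 and 3.60 CPM in control libraries. It rose by 0.73 ± 0.14 (adjusted p = 0.00065) with no overlap. Itga7 (Entrez 16404) was at 67.3, 69.5 and 65.0 CPM in cadmium and at 95.6, 96.6 and 104 CPM in control libraries. All its cadmium libraries were lower (−0.55 ± 0.05, adjusted p = 1.1e-06). Itga6 (Entrez 16403), a surface marker used for neural stem cells, was the most abundant α chain, at 274, 267 and 272 CPM in cadmium and at 293, 289 and 290 CPM in control libraries. Its fall was small (−0.10 ± 0.04, adjusted p = 0.035) and did not pass when any library except control replicate 3 was left out (adjusted p 0.068 to 0.12) or in DESeq2 (0.0524). In FPKM, Itga6 over Itga7 was 4.84 ± 0.208 in cadmium and 3.54 ± 0.165 in control libraries.

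Among collagen-binding α chains, 1 of 3 changed, where 45.5% of all genes tested did. Itga2 (Entrez 16398, chromosome 13) was at 20.2, 20.2 and 19.8 CPM in cadmium and at 39.4, 37.4 and 39.9 CPM in control libraries. The cadmium libraries were close to each other and all below control, and the log2 fold change was −0.95 ± 0.06 (1.94-fold lower, adjusted p = 7.7e-08). Its neighbour Itga1, with no protein-coding gene between them, did not pass (0.14 ± 0.07, adjusted p = 0.13), nor did Itga10 (0.06, adjusted p = 0.92). The other integrins that did not pass were Itga2b (−0.21), Itgb3 (0.05), Itgb4 (−0.45) and Itgb2, a leukocyte chain with 12, 31 and 14 counts in cadmium and 10, 9 and 11 counts in control libraries (0.99 ± 0.47, adjusted p = 0.098), of which cadmium replicate 2 held the most.

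**Figure D3:**
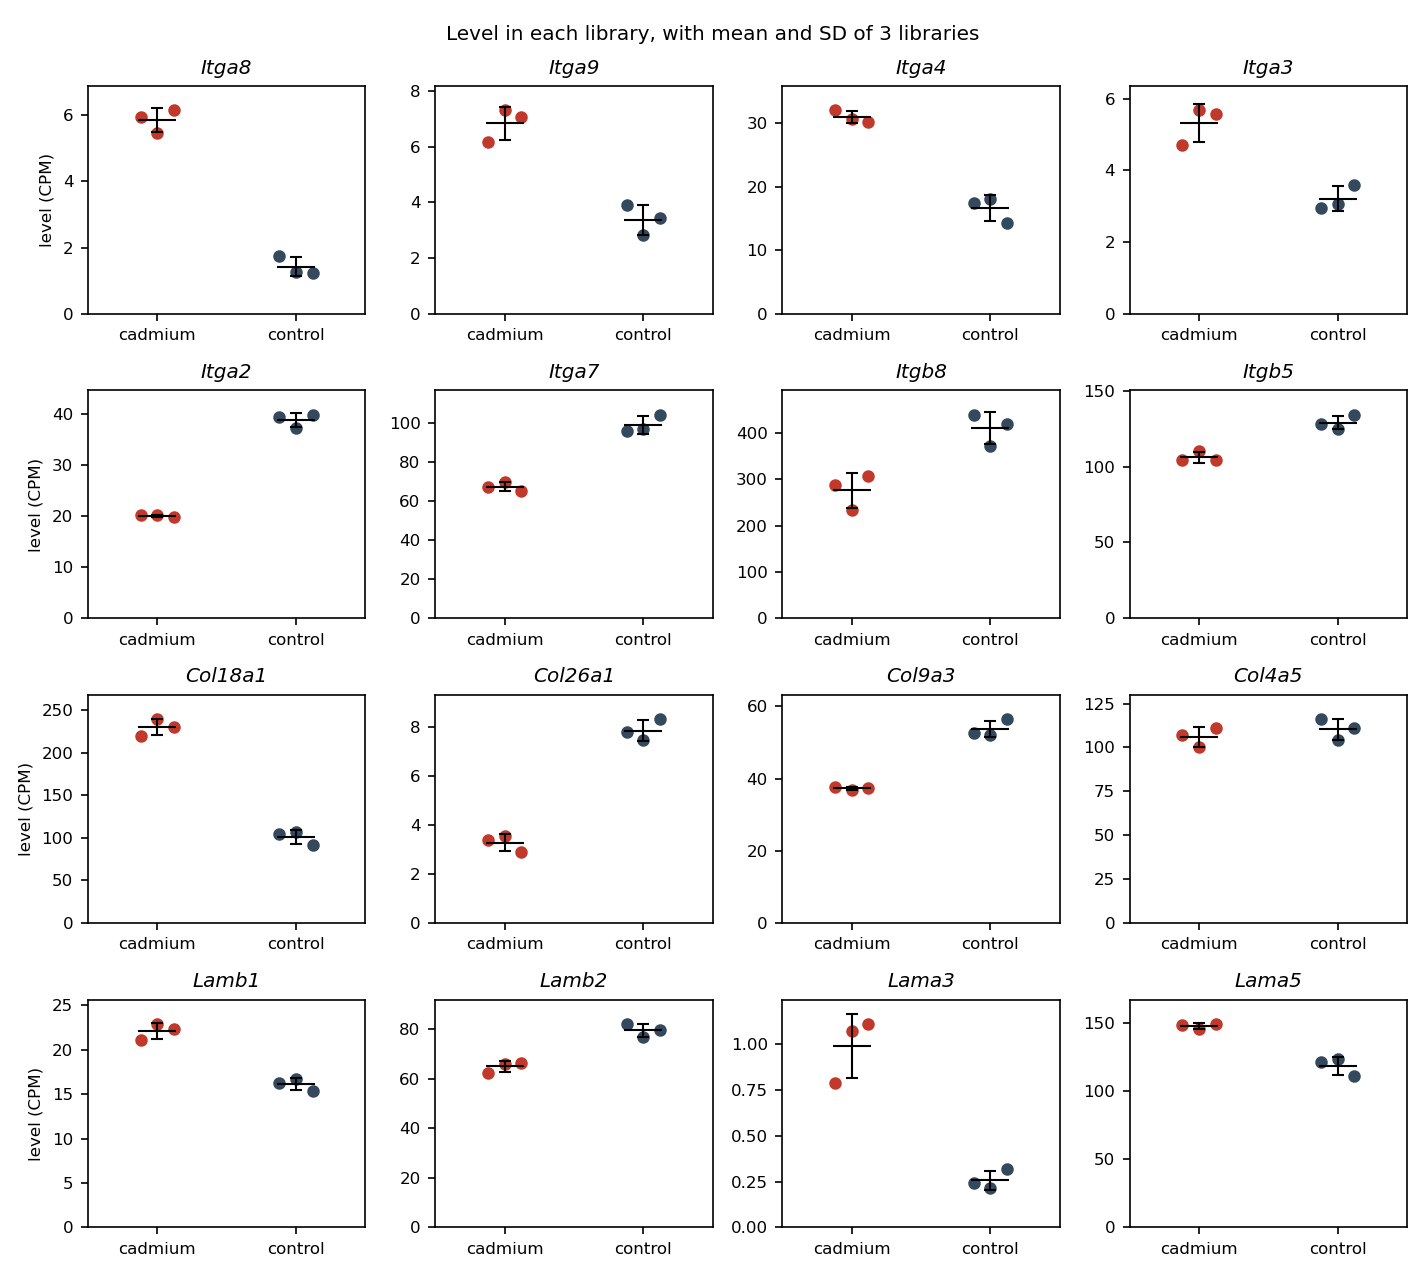
Level (CPM, linear axes from 0) of 16 of the genes in each cadmium and each control library, with the mean and SD of 3 libraries. Cadmium and control points are apart for all but Col4a5, whose libraries lie at 100 to 111 CPM in cadmium and 104 to 116 CPM in control. Every gene drawn except Col4a5 passed the threshold without overlap between groups, so this separation follows from the choice of genes. Of the 53 genes, 37 were apart in this way, beside 56.3% of all genes tested.

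Promoter windows are shown for the integrins with the largest rise, the largest fall and the highest level, so that the opposite movers can be read beside each other. RefSeq (GRCm38.p6) holds windows of 250 bases before the start for 36 of the 53 genes, 39 windows in all. Each was searched on both strands for an antioxidant element (TGACNNNGC), an AP-1 element (TGANTCA), a metal response core (TGCACNC or TGCGCNC) and a SOX motif (ACAATG or ACAAAG). Capitals mark the matches. The windows lie at chr2:12301945-12302194 (minus strand) for Itga8, chr13:114932101-114932350 (minus strand) for Itga2 and chr8:128685404-128685653 (plus strand) for Itgb1.
Itga8: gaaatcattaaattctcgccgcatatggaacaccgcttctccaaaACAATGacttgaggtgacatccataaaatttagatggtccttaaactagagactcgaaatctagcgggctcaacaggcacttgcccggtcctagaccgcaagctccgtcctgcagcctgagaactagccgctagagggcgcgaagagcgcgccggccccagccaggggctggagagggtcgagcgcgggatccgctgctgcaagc
Itga2: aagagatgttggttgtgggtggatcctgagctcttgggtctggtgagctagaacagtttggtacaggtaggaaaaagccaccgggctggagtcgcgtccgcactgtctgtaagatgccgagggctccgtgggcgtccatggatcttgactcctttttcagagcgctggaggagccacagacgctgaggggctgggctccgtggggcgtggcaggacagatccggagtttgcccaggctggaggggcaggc
Itgb1: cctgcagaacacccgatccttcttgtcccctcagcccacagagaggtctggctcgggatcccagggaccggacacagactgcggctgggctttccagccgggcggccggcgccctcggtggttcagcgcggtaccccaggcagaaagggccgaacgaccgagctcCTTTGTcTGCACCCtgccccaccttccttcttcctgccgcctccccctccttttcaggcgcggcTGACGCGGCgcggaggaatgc

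The Itga8 window holds a single SOX motif whose first base is 205 bases before the start, and the Itga2 window holds no match. The Itgb1 window holds a SOX motif on the opposite strand, a metal response core 1 base after it and an antioxidant element that begins 21 bases before the start. Across the 39 windows, the antioxidant element was found in 5 (10.2% of all 32851 windows held it), the AP-1 element in 1 (6.75% of all windows), the metal response core in 9 (21.4%) and the SOX motif in 4 (25.2%). Among the 14 windows of genes that rose, 2 held an antioxidant element, 4 a metal response core, 3 a SOX motif and 0 an AP-1 element. Among the 10 windows of genes that fell, these counts were 1, 2, 0 and 0. These matches describe letters in a window and are no evidence of binding.

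Other genes of matrix and adhesion were followed in 6 lists, in each of which some rose and some fell, as did 23.1% and 22.4% of all genes tested. The share that changed was 41.2% of metalloproteinases and inhibitors, 53.6% of collagen-processing genes, 59.3% of integrin adaptors, 65.0% of other integrin ligands, 72.7% of other matrix receptors and 76.9% of basement membrane partners, beside 45.5% of all genes. Of 13 basement membrane partners tested, 5 rose and 5 fell (median log2 fold change −0.12). Perlecan (Hspg2, 0.29 ± 0.05), nidogen-1 (Nid1, 0.53 ± 0.10) and netrin-4 (Ntn4, 0.68 ± 0.11) rose, and Frem2 (−0.78 ± 0.08), Smoc1 (−0.78 ± 0.07) and agrin (Agrn, −0.23 ± 0.04) fell. Nephronectin (Npnt), the α8β1 ligand, was at 61.0, 66.4 and 63.7 CPM in cadmium and at 36, 33.6 and 24.0 CPM in control libraries. It was named after its values were seen, and it rose without overlap by 1.03 ± 0.14 (adjusted p = 0.00078), in the direction of Itga8.

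Among 20 other integrin ligands tested, 5 rose and 8 fell (median −0.16). Osteopontin (Spp1), a ligand of α4, α9 and αv integrins, averaged 23.5 ± 1.28 CPM in cadmium and 8.51 ± 1.29 CPM in control libraries (1.46 ± 0.10, adjusted p = 1.4e-07). Tenascin-C (Tnc), a ligand of α9 and α8 named after its values were seen, averaged 652 ± 49.4 CPM in cadmium and 253 ± 48.9 CPM in control libraries (1.37 ± 0.17, adjusted p = 0.0022). Fibrillin-1 (Fbn1, 0.40 ± 0.06) and Ecm1 (0.60 ± 0.11) also rose. VCAM-1 (Vcam1), the α4β1 ligand, fell, averaging 92.1 ± 3.64 CPM in cadmium and 159 ± 10.5 CPM in control libraries (−0.79 ± 0.05, adjusted p = 1.1e-07). Tenascin-R (Tnr, −0.73 ± 0.06) and the αv ligand Mfge8 (−0.90 ± 0.07) fell as well. Fibronectin (Fn1), chosen as the main α5β1 ligand after its value was seen, did not pass (0.09 ± 0.05, adjusted p = 0.2).

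Of 27 adaptors that link integrins to actin, 8 rose and 8 fell (median −0.06). Zyxin (Zyx, 0.67 ± 0.06), Vasp (0.30 ± 0.05) and α-actinin-4 (Actn4, 0.22 ± 0.04) rose, and the tensins Tns1 (−0.60 ± 0.06) and Tns3 (−0.36 ± 0.05) and the adaptor Lims2 (−1.73 ± 0.21) fell. Of 11 other matrix receptors, 4 rose and 4 fell (median −0.04), with syndecan-1 (Sdc1, 0.56 ± 0.05), Cd44 (0.27 ± 0.04) and the collagen receptor Ddr2 (0.33 ± 0.06) higher, and Sdc3 (−0.19 ± 0.04), Ddr1 (−0.19 ± 0.04) and dystroglycan (Dag1, −0.13 ± 0.04) lower. Without cadmium replicate 3, 2 of the receptors fell, and Dag1 was not among them (adjusted p = 0.091).

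Of 28 genes that modify, secrete or cross-link collagen, 7 rose and 8 fell (median −0.08). The procollagen N-proteinase Adamts14 averaged 36.1 ± 1.52 CPM in cadmium and 12.8 ± 2.60 CPM in control libraries (1.5 ± 0.12, adjusted p = 2.9e-06), and the lysyl hydroxylase Plod2 (0.37 ± 0.05) and Crtap of the prolyl 3-hydroxylase complex (0.51 ± 0.07) rose with it. The prolyl 4-hydroxylase subunit P4ha3 averaged 1.72 ± 0.109 CPM in cadmium and 5.68 ± 0.304 CPM in control libraries (−1.72 ± 0.15, adjusted p = 7.2e-07), and the collagen chaperone Fkbp10 (−0.81 ± 0.07) and Plod1 (−0.42 ± 0.06) fell too. Of 17 metalloproteinases and inhibitors, 2 rose, Mmp15 (0.66 ± 0.06) and Adamts1 (0.24 ± 0.06), and 5 fell (median −0.06), among them Mmp14 (−0.45 ± 0.05), Timp3 (−0.75 ± 0.09) and Timp2 (−0.28 ± 0.04). Without cadmium replicate 2, and likewise without cadmium replicate 3, the count of falls was 5 among the collagen-modifying genes and 5 among the other ligands.

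**Figure D4:**
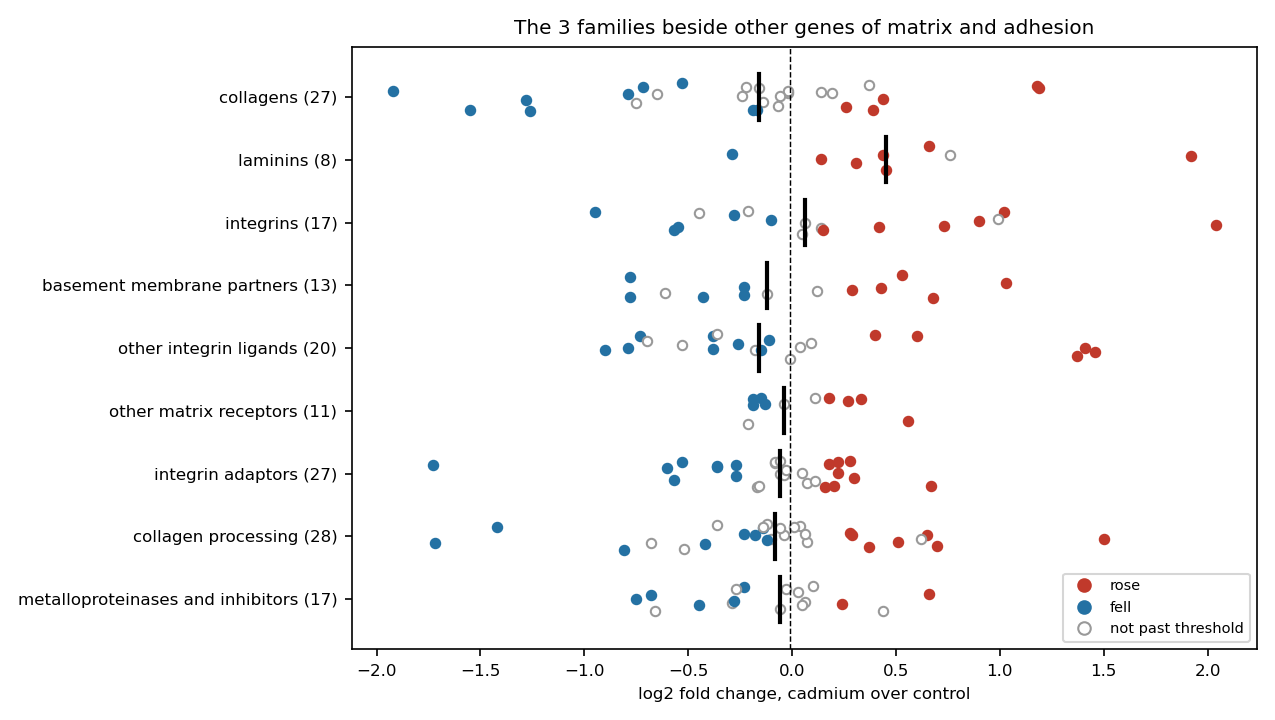
Log2 fold change (cadmium over control) of tested genes in the 3 families (8 of the 9 laminins drawn) and in 6 lists of other matrix and adhesion genes; each point is a gene, black bars are medians over whole lists, and the dashed line is the median of all genes tested, −0.01. The laminin median, 0.45, is the one farthest from the dashed line, and each of the other medians lies between −0.16 and 0.06.

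Markers of other cell types moved as well, and their part in the changes of collagens, laminins and integrins was not tested. Of all genes tested, 23.1% rose and 22.4% fell. The share that changed was 80.0% of stem cell, 100% of astrocyte, 87.5% of oligodendrocyte lineage and 22.2% of neuronal markers tested, beside 45.5% of all genes. Of 10 stem cell markers, 3 rose and 5 fell, and their summed level was 7374 to 7540 CPM in cadmium and 6600 to 6888 CPM in control libraries. Without cadmium replicate 2, and likewise without control replicate 2, 2 of them rose and 4 fell. The rise of Fabp7 was lost in both (edgeR adjusted p = 0.065 and 0.068) and without cadmium replicate 1 (0.056). Without cadmium replicate 3, 4 fell. Of 10 astrocyte markers, 1 rose and 9 fell, and their summed level was 3289 to 3454 CPM in cadmium and 5751 to 6821 CPM in control libraries. Of 8 oligodendrocyte lineage markers tested, 2 rose and 5 fell (3140 to 3311 CPM in cadmium and 3104 to 3254 CPM in control libraries). The 2 rises were small and were lost without cadmium replicate 2, without cadmium replicate 3 and without control replicate 1. That of Olig2 was also lost without control replicate 3 (adjusted p = 0.18), under upper-quartile scaling (0.0547) and with a filter of 5 CPM in 3 libraries (0.056). Of 9 neuronal markers, 2 fell and none rose (607 to 692 CPM in cadmium and 683 to 722 CPM in control libraries), though Tubb3 rose without control replicate 3.

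Markers of the cell types that line brain vessels and meninges, which make much collagen and laminin, were mostly low. Of 5 mural cell markers tested, 2 fell (4.23 to 5.65 CPM in cadmium and 6.17 to 7.44 CPM in control libraries). Without cadmium replicate 3, and likewise without control replicate 1, 1 of them fell. Of 4 fibroblast and meningeal markers tested, 1 rose and 1 fell (22.5 to 24.3 CPM in cadmium and 27.4 to 31.2 CPM in control libraries), with Dcn and Lum under 1 CPM in every library. The rise, of Foxc1, was lost without cadmium replicate 2, and Serping1 also fell without control replicate 2. Of 10 endothelial markers, 2 were tested and neither passed (4.0 to 4.26 CPM in cadmium and 3.68 to 4.47 CPM in control libraries), with Cdh5 at 0 in all libraries. Flt1, a VEGF receptor left out by the filter on low counts, had 13, 8 and 29 counts in cadmium and 3, 1 and 1 counts in control libraries. It rose in 6 of the 12 alternatives (without cadmium replicate 2, without control replicate 1, 2 or 3, with no filter and in DESeq2). In those of them that left out a library, the filter admitted Flt1 through cadmium libraries alone. Of 6 microglial markers in the table, 1 was tested and did not pass (0.213 to 0.666 CPM in cadmium and 0.366 to 0.510 CPM in control libraries), with Ptprc and C1qc at 0. Of 6 Schwann cell markers tested, 3 rose, Dhh, Ngfr and Pmp22 (102 to 107 CPM in cadmium and 69.5 to 88.8 CPM in control libraries).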

How the data were processed

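Gene-level RNA-seq of 6 libraries was analysed from the tables deposited by the authors: whole-number read counts per gene, and FPKM, which equalled the deposited counts divided by library total and gene length within a relative spread of 1.6e-08. Per the submitters' processing notes, the tools were HTSeq 0.11.2, HISAT2 2.1.0, fastp 0.20.1 and DESeq2 1.22.2, on build GRCm39, with no role given for any. The gene annotation and strand setting are not given in the sources used here. Members of families with similar sequence can share or lose reads.

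The test was edgeR's quasi-likelihood F test (version 4.0.16, R 4.3.3) after TMM scaling, with no term besides the group. Filtering by filterByExpr (minimum count 10, total 15, which came to 0.246 CPM) left 14369 genes with 99.96% of counts. SE stands for the standard error, computed as the size of the log2 fold change over the root of F. P-values are two-sided. No 2 libraries of a group were alike within sampling noise (chi-square per degree of freedom 3.43 to 12.8).

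The members, lists and tests were chosen with earlier results of these data known. Named genes are, per family, up to 5 rises and 5 falls of largest size past the threshold with no overlap and at least 1 CPM in a group, the 3 highest by FPKM, and chains that assemble together or share a locus; per list, up to 3 rises and 3 falls of smallest p; the remaining members are given to account for all. Alternatives were median-of-ratios and upper-quartile scaling, no filter, a filter of 5 CPM in 3 libraries, each library left out, a replicate block, and DESeq2 1.42.0. Exon overlaps come from GENCODE vM21 (GRCm38), and gene neighbours and promoter windows from RefSeq (GRCm38.p6). Totals and counts include genes whose own results are not given here.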

Additional observations from a re-analysis of the deposited data

How the results depend on the processing

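Of the 33 calls, 23 kept their direction and their side of the threshold in each of the 12 alternatives that gave a value, and 10 were lost in at least 1: Col16a1, Col19a1, Col2a1, Col5a2, Col5a3, Itga6, Itgb8, Lama1, Lama4 and Lamc1. At 5 CPM in 3 libraries, 28 members had values, of which 5 collagens fell, 4 collagens rose and 3 laminins rose, since fewer genes were tested. Under DESeq2, 3 collagens rose, and the cause was not tested. On leaving out each library in turn, 15 to 18 members rose and 12 to 14 fell, with 3 to 5 collagens and 4 to 8 laminins rising. Col4a6 was gained under upper-quartile scaling (adjusted p = 0.044) and the 5 CPM filter (0.037), and Lama2 without a filter (0.013) and without control replicate 1 (0.033). The sign turned only in genes that did not pass: Col4a1 was 0.00 with no filter, and leaving out single libraries gave −0.04 to 0.01 for Col11a1, −0.35 to 0.03 for Col23a1, −0.04 to 0.01 for Col4a1, −0.17 to 0.04 for Col4a2, −0.35 to 0.03 for Col4a4, −0.23 to 0.40 for Col7a1, −0.28 to 0.35 for Itga10, −0.16 to 0.35 for Itgb3, −0.05 to 0.14 for the endothelial marker Vwf and −0.56 to 0.04 for the microglial marker P2ry12. Replicate numbers were not found to pair the samples: the correlation of deviations between same-numbered libraries was 0.0091, 0.127 and 0.00024. With the replicate number as a block, 19 members rose and 15 fell (collagens 5 and 10, laminins 8 and 1, integrins 6 and 4), with Lama2 (adjusted p = 0.025) and Col4a6 (0.0492) gained and Itga6 lost (0.057). With no filter, the calls of Col19a1 (adjusted p = 0.0536), Col5a2 (0.087) and Itga6 (0.16) were lost. Depth limits the sparse members: Col19a1 had at most 24 counts in a library and Col2a1 at most 34.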
